A study of Mus musculus with 360 samples.

Results

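A set of 10 genes of fibroblast growth factor (FGF) signalling was followed among the 24015 genes counted in every cell. The set was chosen by name and role, with earlier results of these data known. It held the receptors Fgfr1, Fgfr2 and Fgfr3, the receptor-like gene Fgfrl1, the ligands Fgf9 and Fgf18, and the feedback genes Spry1, Spry2, Spry4 and Dusp6.

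FGF ligands bind receptor tyrosine kinases together with heparan sulphate, and the bound receptors signal through Ras and the MAP kinases ERK1 and ERK2. The same signal switches on genes that dampen it, among them the Sprouty genes and Dusp6, so that their transcripts are widely read as a trace of pathway activity. In the skull vault, activating mutations of the receptors are a classic cause of craniosynostosis, the early fusion of sutures, and in the growth plate Fgfr3 is the receptor known for restraining cartilage growth.

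The cells were single CD51+;CD200+ skeletal stem and progenitor cells sorted from wild-type CD-1 mice at postnatal day 3. They came from the posterior frontal suture (PF), which fuses early in mouse life, from the sagittal (SAG) and coronal (COR) sutures, which remain patent, and from the growth plate of the tibia (GP). All groups shared strain, age, genotype and sort (CD51 and CD200 present, and surface proteins of blood, endothelial and other lineages, such as CD45 and Tie2, absent), and the mice were pooled, with none named for any cell. Each tissue therefore counted as 1 sample, its 2 plates gave the only spread, and no p-value was computed between tissues.

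Of 360 cells, 325 had at least 500 genes and 10000 reads, namely 87 PF, 86 SAG, 74 COR and 78 GP cells. Levels are given as CPM, reads of a gene per 1000000 reads other than those of the ribosomal precursor Rn45s, which took 20.2% to 30.96% of the reads of 7 plates and 86.8% of SAG plate 2. The plates held between 3237921 and 28799387 other reads. SAG plate 2 also had the fewest genes per cell, with a median of 875 against 2111.5 to 3867 on the other plates. Most results that rest on SAG are given without it or by plate, but those for further feedback and response genes are mainly sums that include it. The sort markers were thinly read, Itgav (CD51) in 16 to 45 cells of a tissue and Cd200 in 29 to 41, while Ptprc (CD45) was read in at most 3. Osteoblast genes were the most abundant of the marker lists in all 4 tissues, and the chondrocyte list (11 genes measured) summed to 399 CPM in PF, 16876 CPM in SAG, 296 CPM in COR and 3959 CPM in GP.

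Fgfr1 and Fgfr2 were the receptors of most cells in all 4 tissues, and Fgfr3 was read in fewer cells. Per kilobase of the longest coding transcript (RPKM), Fgfr2 stood above Fgfr1 and above Fgfr3 in 8 of 8 plates, and Fgfr1 stood above Fgfr3 in 7 of 8, SAG plate 2 being the exception. Summed over a tissue, Fgfr2 reached 332 RPKM in SAG, 94.3 RPKM in COR, 79.8 RPKM in PF and 56.1 RPKM in GP. In the same order Fgfr1 reached 132, 42.9, 57.3 and 39.3 RPKM, and Fgfr3 246, 19.5, 17.2 and 19.4 RPKM. Without SAG plate 2 the SAG values were 121 RPKM for Fgfr2, 78.1 RPKM for Fgfr1 and 40.5 RPKM for Fgfr3. Counts per gene do not tell the splice forms of a receptor apart, among them the IIIb and IIIc forms that bind different ligands.

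Fgfr1, the receptor most widely found in mesenchyme, lies on chromosome 8 (mm9 chr8:26629264-26686186, plus strand, 18 exons). Its level was 290 and 285 CPM on the 2 PF plates, 389 and 835 CPM in SAG, 250 and 210 CPM in COR and 201 and 195 CPM in GP. The SAG plates were above all others, and outside SAG the plates of each tissue lay close together. A second record of Fgfr1 and the long non-coding gene Gm16159 overlap this locus in the annotation, and the use of strand in the counting was not stated in the sources used here, so some of these reads may belong to Gm16159.

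Fgfr2, mutated in Apert and Crouzon syndromes, lies on chromosome 7 (mm9 chr7:137306026-137409759, minus strand, 16 exons). Its level was 339 and 336 CPM in PF, 512 and 1997 CPM in SAG, 353 and 404 CPM in COR and 224 and 240 CPM in GP. The order SAG, COR, PF, GP held for the tissue sums of 1404, 398, 337 and 237 CPM, with both COR plates above both PF plates and these above both GP plates, though by less than 1 on the log2 scale. It was read in 81.1% of COR cells, 70.9% of SAG cells, 64.4% of PF cells and 57.7% of GP cells.

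Fgfr3, mutated in achondroplasia and in Muenke craniosynostosis, lies on chromosome 5 (mm9 chr5:34064373-34079716, plus strand, 18 exons). Its level was 104 and 64.8 CPM in PF, 171 and 1613 CPM in SAG, 100.99 and 80.04 CPM in COR, and 0 and 98.98 CPM in GP. The first GP plate had the gene in 0 of 20 cells, where 3 counts would be a share of 15% and the exact upper limit is 16.8%, and the second in 15 of 58. A single cell held 49.5% of the PF reads and another 32.3% of the GP reads. On SAG plate 1 a single cell held 35.4%. Cells with a read made up 24.1% of PF (95% exact binomial interval 15.6% to 34.5%), 48.8% of SAG (37.9% to 59.9%), 47.3% of COR (35.6% to 59.3%) and 19.2% of GP (11.2% to 29.7%). These intervals, like all those given here, cover counting error only, since cells of a tissue may come from the same mice and reads carry no molecular identifiers. By plate Fgfr3 was read in 15 of 30 and 27 of 56 SAG cells and in 8 of 16 and 27 of 58 COR cells. After each cell was thinned to 100000 reads the tissue shares were 24.3%, 47.5%, 40.8% and 19.4%. The CPM of COR was 82.2 against 72.5 in PF and 81.8 in GP, so that the order by share was not an order by level. GP cells with an Fgfr3 read had a median of 230 CPM of it, against 115 CPM in those of COR and 85.6 CPM in those of PF.

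Fgfrl1, whose product binds FGFs but lacks the kinase domain, lies on chromosome 5 (mm9 chr5:109123248-109135969, plus strand). Its level was 0 and 50.2 CPM in PF, 30.7 and 11.2 CPM in SAG, 20.4 and 27.99 CPM in COR and 0.607 and 16.5 CPM in GP. Both COR plates lay above both GP plates, at a log2 ratio of 0.93 that is below the size called, and no pair of tissues was called.

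**Figure D1:**
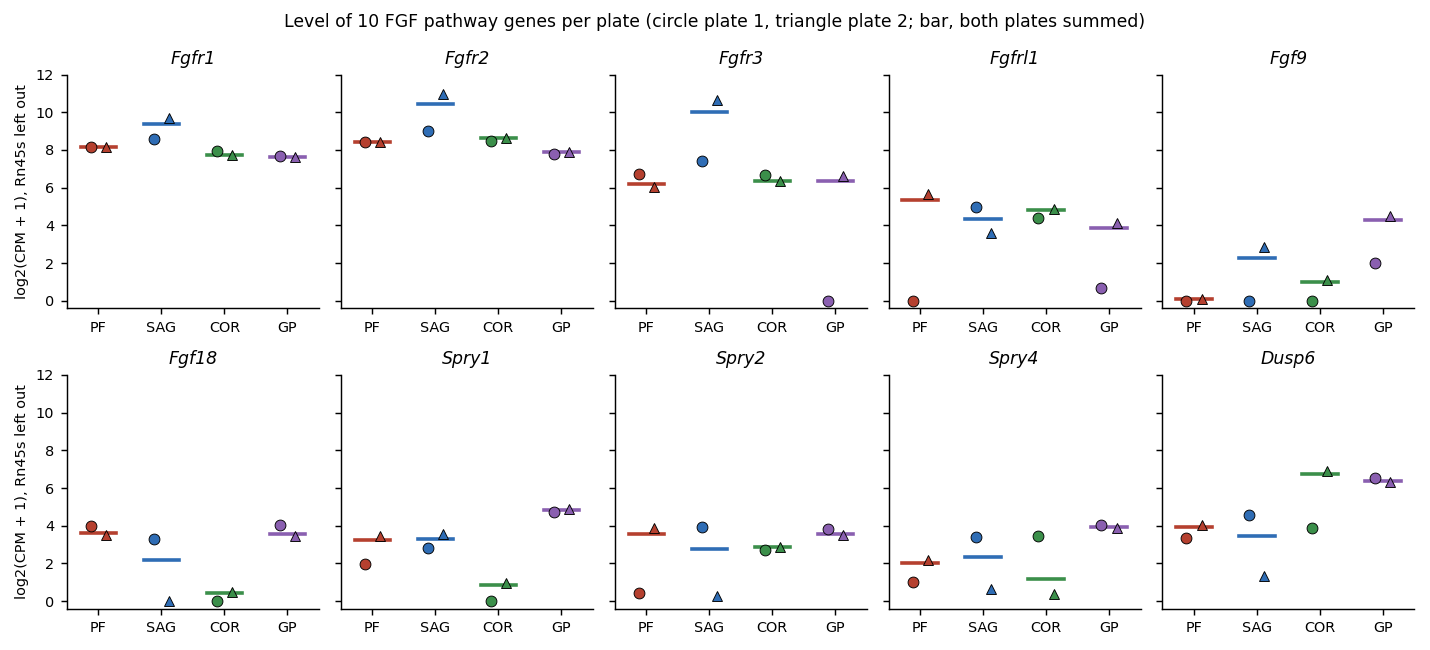
Level of each of the 10 genes as log2(CPM + 1), Rn45s left out, for the 4 tissues. Circles are plate 1, triangles plate 2 and bars both plates summed. Fgfr1, Fgfr2 and Fgfr3 stand highest in SAG, and Spry1 stands highest in GP, where its plates lie at 25.3 and 28.1 CPM.

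Between tissues, a gene was called where the 4 plate-by-plate ratios all pointed in one direction and the ratio of the sums was at least 1 on the log2(CPM + 1) scale, which understates the change of low genes. To be tested, a gene needed 10 CPM in at least 1 tissue of the pair. One below 10 CPM in a tissue could thus be called only as higher in the other. Sums over a tissue do not tell fewer cells with a gene from less of its RNA per cell, and the shares of cells are given beside them. Fgfr1, Fgfr2 and Fgfr3 were called higher in SAG than in each of the other tissues. From PF to SAG, 4 of the 7 members tested were called, where 30.1% of 9869 genes were called and the median gene stood 0.29 higher in PF. The log2 ratios of PF over SAG were -1.20 for Fgfr1, -2.06 for Fgfr2 and -3.82 for Fgfr3. From SAG to COR, 3 of 5 members tested were called, against 32.4% of all genes, at 1.61, 1.81 and 3.64 for the same receptors. From SAG to GP, 7 of 10 were called, 3 higher in SAG and 4 in GP, against 31.6% of all genes, and the receptors stood at 1.74, 2.56 and 3.65. The shares of cells with Fgfr1 or Fgfr2 reads in SAG were 65.1% and 70.9%, against 77.03% and 81.1% in COR. Cells with an Fgfr2 read had a median of 1242 CPM in SAG, or 532 CPM in plate 1 and 2484 CPM in plate 2, against 274, 360 and 299 CPM in PF, COR and GP.

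Most of this rested on SAG plate 2. Without it, the log2 ratio of PF over SAG was -0.45 for Fgfr1, -0.60 for Fgfr2 and -1.23 for Fgfr3, that of SAG over COR was 0.86, 0.36 and 1.05, and that of SAG over GP was 0.99, 1.11 and 1.05. Fgfr3 stayed above 1 in size in all 3 pairs, Fgfr2 only against GP and Fgfr1 in none. However, 1 cell held 35.4% of the Fgfr3 reads of SAG plate 1, and the ratios of that plate without this cell are not given here. With Rn45s counted in the totals the signs of Fgfr1 turned, to 0.69 for PF over SAG, -0.28 for SAG over COR and -0.07 for SAG over GP, and Fgfr2 gave -0.17, -0.08 and 0.75, while Fgfr3 remained higher in SAG at -1.93, 1.74 and 1.83. With TMM factors the receptors kept their direction, and the share of called genes that were higher in PF moved from 56.2% to 43.2% for PF to SAG. In the same way the share higher in SAG moved from 41.7% to 54.8% against COR and from 41.98% to 50.2% against GP. The chondrocyte list also stood highest in SAG, at 21027 and 14116 CPM in its plates, and the osteoclast list stood at 7759 and 1997 CPM against 453 to 1101 CPM on the other plates, with its defining genes Ocstamp and Dcstamp at 0. The part of either in the SAG levels of the receptors was not tested. Between PF, COR and GP none of Fgfr1, Fgfr2 and Fgfr3 was called.

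A read of at least 1 of the 3 receptors was found in 287 of 325 cells (88.3%). By tissue this was 83.9% of PF cells (74.5% to 90.9%), 91.9% of SAG (83.9% to 96.7%), 94.6% of COR (86.7% to 98.5%) and 83.3% of GP (73.2% to 90.8%), intervals that overlap, and without SAG plate 2 it was 28 of 30 SAG cells. The most common state was Fgfr1 with Fgfr2 and without Fgfr3, in 102 cells (31.4%), followed by all 3 receptors in 67 cells (20.6%). Fgfr1 alone was read in 44 cells, Fgfr2 alone in 28 and Fgfr3 alone in 5. Fgfr3 was thus rarely the only receptor read in a cell. All 3 receptors were read together in 12 PF cells (13.8%), 22 SAG cells (25.6%), 24 COR cells (32.4%) and 9 GP cells (11.5%), and after thinning in 14.3%, 23.8%, 23.9% and 8.96%. SAG plate 1 alone had them in 10 of 30 cells.

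**Figure D2:**
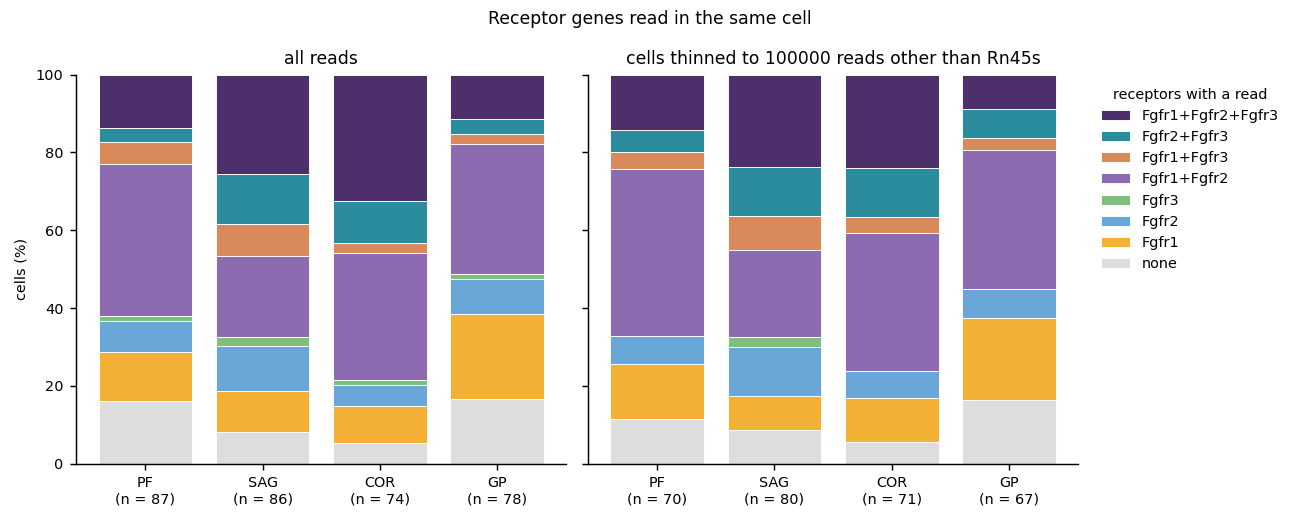
Share of cells (percent) with each combination of Fgfr1, Fgfr2 and Fgfr3 reads in the 4 tissues, from all reads on the left and from cells thinned to 100000 reads on the right, where shallower cells are left out. The band of all 3 receptors is 13.8% and 11.5% of PF and GP cells and 25.6% and 32.4% of SAG and COR cells on the left.

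Fgfr3 was read more often in cells with Fgfr2 than in cells without it, in each tissue. In PF it was read in 15 of 56 cells with and 6 of 31 without Fgfr2, in SAG in 33 of 61 and 9 of 25, in COR in 32 of 60 and 3 of 14, and in GP in 12 of 45 and 3 of 33. Cells with Fgfr2 reads were also more deeply read, and in cells thinned to the same number of reads, SAG plate 2 left out, the shares were 36.6% of 164 and 15.9% of 69 cells. For Fgfr1 the same shares were 30.2% and 31.1%. Thinning did not match the cells on genes read, whose median was 3065.5 in the thinned cells with Fgfr2 and 2470 in those without. For Fgfr1 these medians were 2996.5 and 2766, and the part of this difference in the shares was not tested. Across 269 cells centred on their plates, again without SAG plate 2, Spearman's rho was 0.20 for Fgfr2 with Fgfr3 and 0.08 for Fgfr1 with Fgfr2. These cells share plates and differ in depth, and the values are descriptions.

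Split by Ibsp, the gene of bone sialoprotein and a marker of osteoblasts, Fgfr1 and Fgfr2 leaned in opposite directions. Fgfr2 stood lower in the cells with Ibsp reads in 8 of 8 plates, where 4.63% of 10685 genes did so. Its level in cells with and without Ibsp was 247 and 384 CPM in PF, 429 and 1548 CPM in SAG, 169 and 465 CPM in COR and 205 and 247 CPM in GP. In CPM the gap was widest in SAG plate 2 (449 and 2101), against 420 and 538.5 in SAG plate 1 and 207 and 253 in GP plate 2, and GP plate 1 had only 2 Ibsp cells. The share of cells with an Fgfr2 read was lower beside Ibsp in 6 of 8 plates, and over the tissues it was 14 of 27 against 42 of 60 in PF, 4 of 9 against 57 of 77 in SAG, 13 of 19 against 47 of 55 in COR and 10 of 18 against 35 of 60 in GP.

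Fgfr1 stood higher in the cells with Ibsp reads in 7 of 8 plates, where 0.824% of genes were higher in at least 7. Its level in cells with and without Ibsp was 365 and 244 CPM in PF, 1137 and 586 CPM in SAG, 338 and 178 CPM in COR and 219 and 189 CPM in GP, and the exception was SAG plate 1 at 351 and 401 CPM. After thinning, Fgfr1 was higher in 5 of 7 plates with Ibsp cells left, SAG plate 1 and COR plate 1 being lower, and Fgfr2 was lower in 7 of 7. Fgfr3 had no single direction over the plates, and in SAG it was read in 0 of 9 Ibsp cells and 42 of 77 others. Across the 269 cells the plate-centred rho with Ibsp was -0.17 for Fgfr2 and 0.08 for Fgfr1. With Runx2, which commits cells to bone, rho was 0.27 for Fgfr2 and 0.19 for Fgfr3. With Sp7, which acts after it, rho was 0.14 for Fgfr2 and 0.22 for Fgfr3. With Sox9, a gene of the chondrocyte list, it was 0.18 and 0.17. The rho of these receptors with the number of genes read, not centred on plates, was 0.31 and 0.26.

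**Figure D3:**
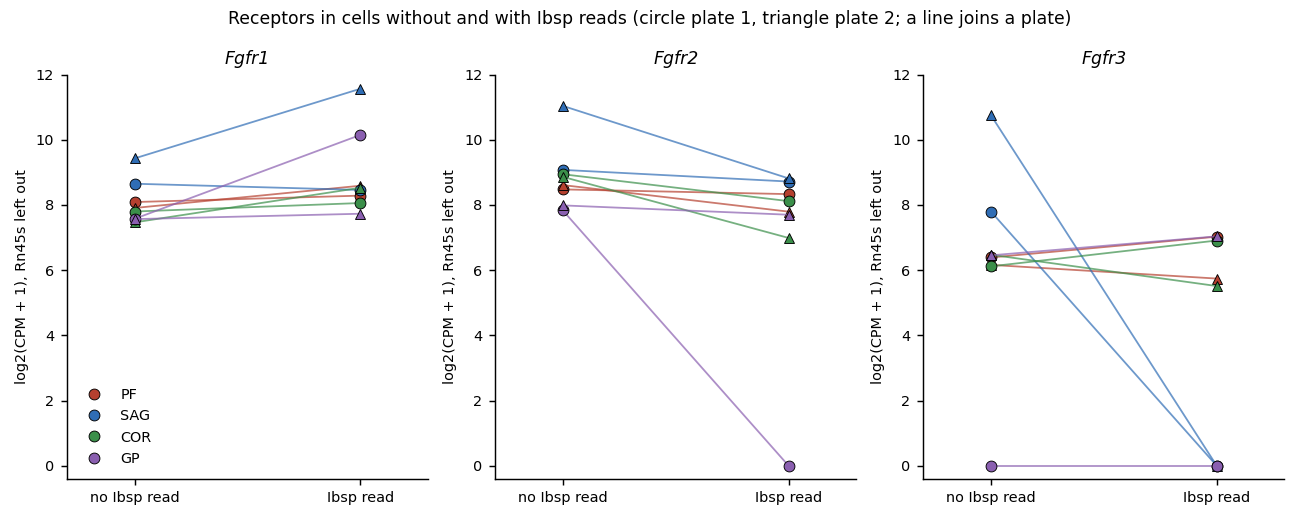
Level of Fgfr1, Fgfr2 and Fgfr3 as log2(CPM + 1) in the summed cells without and with Ibsp reads. Each line joins the 2 sums of 1 plate, circles for plate 1 and triangles for plate 2. Lines of Fgfr2 fall in 8 of 8 plates and lines of Fgfr1 rise in 7 of 8, while 2 SAG lines of Fgfr3 end at 0.

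Split by Col2a1, the main collagen of cartilage, Fgfr3 was read in 36 of 56 SAG cells with Col2a1 and in 6 of 30 without it. Both SAG plates had this direction, with 14 of 22 against 1 of 8 cells in plate 1 and 22 of 34 against 5 of 22 in plate 2, and so did the thinned cells, with 32 of 50 against 6 of 30. In the other tissues Col2a1 was read in few cells, and Fgfr3 was in 0 of 8 against 21 of 79 cells in PF, 2 of 3 against 33 of 71 in COR and 5 of 21 against 10 of 57 in GP. The 21 PF cells with Fgfr3 reads thus all lacked a Col2a1 read. Fgfr1 had the SAG direction too, with 41 of 56 against 15 of 30 cells. By CPM, Fgfr1, Fgfr2, Fgfr3 and Fgfrl1 were all higher in the Col2a1 cells of both SAG plates, so the direction was not particular to Fgfr3. The share of all genes with this direction is not given here, and the cells were not matched on genes read.

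Other genes were read alongside the receptors to different degrees. Of 5375 genes read in at least 20% of the 269 cells, the 5 with the highest plate-centred rho with Fgfr2 were Olfml3 (0.44), Col12a1 (0.44), Aebp1 (0.43), Clec11a (0.42) and Angptl2 (0.40), all of which encode secreted or matrix proteins of connective tissue. Among those of Fgfr3 were Podnl1 (0.40), Crat (0.34), Tmem248 (0.33) and Entpd3 (0.33). The highest of Fgfr1 was Ctage5 at 0.25, below the fifth of either other receptor.

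The ligands were read in few cells. Fgf18, which growth plate and suture cells use to govern bone and cartilage growth, lies on chromosome 11 (mm9 chr11:33017430-33047400, minus strand). Its level was 14.7 and 10.4 CPM in PF, 8.87 and 0 CPM in SAG, 0 and 0.382 CPM in COR and 15.4 and 10.03 CPM in GP, from 6, 2, 1 and 8 cells. It was higher in PF than in COR (log2 ratio 3.19) and was the only member called in that pair, where 11.8% of 9514 genes were called, 5.43% higher in PF and 6.36% higher in COR. It was also higher in GP than in COR (COR over GP -3.15). Against SAG it was higher in PF (1.43) and in GP (SAG over GP -1.40), and without SAG plate 2 these were 0.31 and -0.28 and not called. Below 10 CPM in COR and SAG, Fgf18 could be called in these pairs only as higher in PF or GP. The COR level came from 11 reads of 1 cell, and the ratio of PF to COR in CPM was 32.8 with a counting interval of 18.1 to 66.3.

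Fgf9, a ligand that binds Fgfr3 and the mesenchymal forms of the other receptors, lies on chromosome 14 (mm9 chr14:58689384-58731174, plus strand), where the pseudogene Gm17109 overlaps it on the other strand. Its level was 0 and 0.082 CPM in PF, 0 and 6.38 CPM in SAG, 0 and 1.15 CPM in COR and 3.04 and 21.8 CPM in GP. It was higher in GP than in PF (PF over GP -4.19) and COR (COR over GP -3.26), although 4 GP cells carried all of its reads there and 1 of them 46.1%. Without GP plate 2 these ratios were -1.92 and -0.99, the latter below the size called. Only 2 reads were found in PF, and the CPM ratio of GP to PF was 280 with a counting interval of 77.2 to 2322. Either ligand was read in 15.4% of GP cells, 8.05% of PF cells, 4.05% of COR cells and 3.49% of SAG cells.

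Among 20 other FGF ligands, 2 reached 10 CPM in a tissue and 8 had no read in any cell. Fgf10, a mesenchymal ligand of Fgfr2 in epithelia, stood at 22.5 and 9.56 CPM in the GP plates and was called higher in GP than in PF (2.8 CPM) and SAG (0 CPM). Fgf13, which acts inside cells, reached 26.8 CPM in PF from plate 2 alone. Of 8 further receptor and co-receptor genes, Fgfr4 reached 1.4 CPM at most, and Klb and Fgfbp1 had no read.

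**Figure D4:**
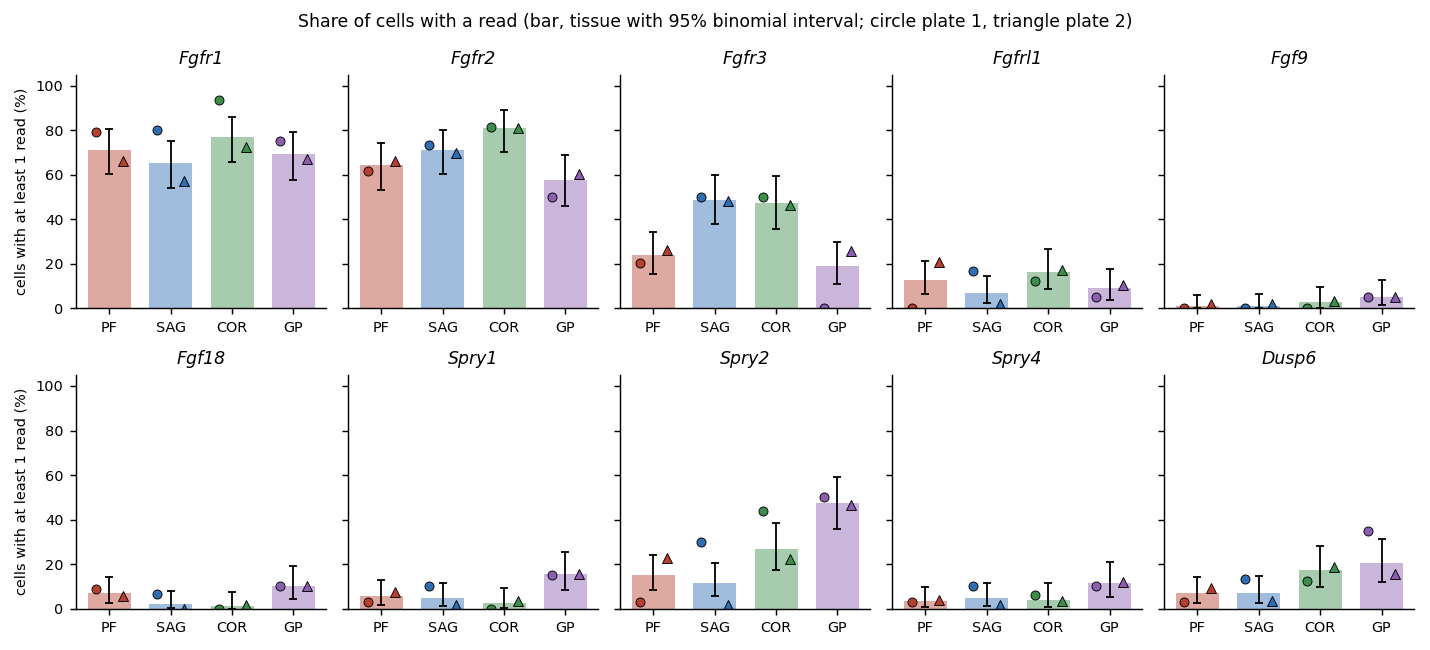
Share of cells (percent) with at least 1 read of each of the 10 genes. Bars are tissues with 95% exact binomial intervals, circles plate 1 and triangles plate 2. Fgfr3 is read in 48.8% and 47.3% of SAG and COR cells against 24.1% and 19.2% of PF and GP cells, and Spry2 in 47.4% of GP cells.

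The feedback genes were read in more cells of the growth plate than of any suture. At least 1 of Spry1, Spry2, Spry4 and Dusp6 was read in 19 of 87 PF cells (21.8%), 19 of 86 SAG cells (22.1%), 32 of 74 COR cells (43.2%) and 49 of 78 GP cells (62.8%). By plate the counts were 3 of 34 and 16 of 53 in PF, 15 of 30 and 4 of 56 in SAG, 9 of 16 and 23 of 58 in COR, and 15 of 20 and 34 of 58 in GP. Both GP plates lay above all others by share of cells with at least 1 read. For Spry2, the feedback gene read in most cells, the GP share was 21.8% with at least 5 reads asked for. From PF to GP, 4 of the 10 members, all tested, were called, each higher in GP, namely the ligand Fgf9 with Spry1, Spry4 and Dusp6. Of 9584 genes, 16.4% were called in this pair, 8.73% in that direction and 7.67% in the other. From COR to GP, 4 of 10 were called, again all higher in GP, namely the ligands Fgf9 and Fgf18 with Spry1 and Spry4. Here 13.4% of 9431 genes were called, 7.09% in that direction and 6.33% in the other. The members called from COR to GP (0.343 to 1.28 CPM in COR) passed the filter of 10 CPM through GP alone. So did Fgf9, Spry1 and Spry4 against PF (0.066, 8.48 and 3.00 CPM there). These could be called only as higher in GP, so their shared direction was fixed by the filter. Spry2 was called in neither pair, and Dusp6 summed to 107 CPM in COR and 81.03 CPM in GP.

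The promoter windows of Dusp6, Spry2 and Spry1 are shown because these feedback genes were read in more cells than Spry4 and had an entry in the promoter table. RefSeq promoters (GRCm38.p6, a later build than that of the counts, 250 bases before to 50 after the start) were at hand for 8 of the 10 genes, all but Fgfr1 and Spry4. The windows are chr10:99262981-99263280 on the plus strand for Dusp6, chr14:105896770-105897069 on the minus strand for Spry2 and chr3:37639697-37639996 on the plus strand for Spry1. Capitals mark the letters CCGGAA, the core bound by ETS factors, and the octamers TGAATGAA, TGAATGGA, TCAATGAA and TCAATGGA, to which the repressor Capicua binds until ERK signalling removes it, on either strand.
Dusp6: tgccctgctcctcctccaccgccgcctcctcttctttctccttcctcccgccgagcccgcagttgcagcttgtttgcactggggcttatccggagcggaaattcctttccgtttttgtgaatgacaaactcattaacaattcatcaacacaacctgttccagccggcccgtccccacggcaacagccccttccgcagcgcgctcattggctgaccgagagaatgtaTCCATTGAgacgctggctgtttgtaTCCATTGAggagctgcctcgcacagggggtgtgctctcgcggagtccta
Spry2: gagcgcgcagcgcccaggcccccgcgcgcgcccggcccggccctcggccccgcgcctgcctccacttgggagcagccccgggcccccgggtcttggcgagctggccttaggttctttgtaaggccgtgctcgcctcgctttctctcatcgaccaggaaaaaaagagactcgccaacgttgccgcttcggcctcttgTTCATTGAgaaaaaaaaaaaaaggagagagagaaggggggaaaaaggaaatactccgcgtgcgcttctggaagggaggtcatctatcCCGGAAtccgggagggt
Spry1: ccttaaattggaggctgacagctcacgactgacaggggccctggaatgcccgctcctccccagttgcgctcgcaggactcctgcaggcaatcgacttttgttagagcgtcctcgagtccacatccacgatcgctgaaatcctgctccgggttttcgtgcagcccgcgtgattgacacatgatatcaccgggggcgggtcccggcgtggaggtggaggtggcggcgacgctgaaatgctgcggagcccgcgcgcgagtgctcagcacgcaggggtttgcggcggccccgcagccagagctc
The Dusp6 window held TCCATTGA, the reverse complement of TCAATGGA, in 2 places, and the Spry2 window held TTCATTGA, the reverse complement of TCAATGAA, once and CCGGAA once. The Spry1 window held none of them. Any of the 4 octamers was found in 3.84% of 32851 promoter windows and CCGGAA in 14.9%. The octamers were chosen for the search after the windows had been seen, and a match is a run of letters and not a measured site.

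Spry1, one of the Sprouty inhibitors of receptor tyrosine kinases, lies on chromosome 3 (mm9 chr3:37539002-37543520, plus strand). Its level was 2.87 and 9.84 CPM in PF, 5.96 and 11.03 CPM in SAG, 0 and 0.938 CPM in COR and 25.3 and 28.1 CPM in GP. The GP plates were above all suture plates, and Spry1 was higher in GP than in PF (PF over GP -1.59), SAG (-1.52) and COR (-3.96), and without SAG plate 2 the ratio of SAG over GP was -2.04. It was read in 12 GP cells (15.4%) and in 5, 4 and 2 cells of PF, SAG and COR.

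Spry4, another Sprouty inhibitor on chromosome 18 (mm9 chr18:38745922-38760922, minus strand), had 1.01 and 3.49 CPM in PF, 9.46 and 0.58 CPM in SAG, 9.88 and 0.313 CPM in COR and 15.4 and 13.8 CPM in GP. The GP plates again lay above the suture plates. It was called higher in GP than in PF (PF over GP -1.91), SAG (-1.56) and COR (-2.73). Without SAG plate 2 the ratio of SAG over GP was -0.53, and without COR plate 2 that of COR over GP was -0.47, both below the size called. It was read in 9 GP cells and in 3 or 4 cells of each suture.

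Spry2, on chromosome 14 (mm9 chr14:106291166-106296036, minus strand), inhibits the same pathway and was the feedback gene read in most cells. It was read in 37 of 78 GP cells (47.4%) against 13 of 87 in PF (14.9%), 10 of 86 in SAG (11.6%) and 20 of 74 in COR (27.03%), and after thinning in 37.3%, 15.7%, 11.2% and 19.7% in the same order. In plates this was 10 of 20 and 27 of 58 in GP, 1 of 34 and 12 of 53 in PF, 9 of 30 and 1 of 56 in SAG, and 7 of 16 and 13 of 58 in COR. The levels were 13.2 and 10.4 CPM in GP, 0.338 and 13.5 CPM in PF, 14.1 and 0.193 CPM in SAG and 5.56 and 6.39 CPM in COR, and no pair that could be tested was called. Cells with a Spry2 read held a median of only 15.8 to 24.01 CPM of it. With at least 5 reads asked for, Spry2 was in 17 GP cells (21.8%), 11 PF cells (12.6%), 6 SAG cells (6.98%) and 12 COR cells (16.2%). By plate these shares were 10% and 25.9% in GP and 0% and 20.8% in PF. In SAG they were 20% and 0%, and in COR 6.25% and 18.97%. The first GP plate thus lay below a plate of each suture.

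Dusp6, a phosphatase that removes the activating phosphates of ERK, lies on chromosome 10 (mm9 chr10:98725865-98730122, plus strand). Its level was 9.30 and 15.4 CPM in PF, 22.99 and 1.55 CPM in SAG, 13.9 and 117 CPM in COR and 90.9 and 78.96 CPM in GP. It was higher in GP than in PF (PF over GP -2.43) and SAG (SAG over GP -2.88, or -1.77 without SAG plate 2). Between COR and GP the plate ratios ran from -2.62 to 0.57 and it was not called. Its reads came from 16 GP cells, 13 COR cells and 6 cells each of PF and SAG, and the top cell held 41.1% of them in GP and 33.2% in COR.

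Other outputs of the pathway were taken from a list of 19 further feedback and response genes, which had been written down with earlier results of these data known. From PF to GP, 12 were tested and 5 were called, all higher in GP (Il17rd, Dusp1, Cbl, Egr1 and Fos), where 16.4% of all genes were called, with a median log2 ratio of -0.48 against 0.10 for all genes. From COR to GP, 12 were tested and 4 were called, all higher in GP (Dusp1, Etv1, Egr1 and Fos), where 13.4% of all genes were called, with a median of -0.51 against 0.07. From PF to COR none of 11 tested was called. More of the list was higher in SAG than in each other tissue, in sums that include SAG plate 2, and counts without that plate are not given here. From SAG to GP 6 of 15 were higher in SAG and 3 in GP, where 31.6% of all genes were called, with a median of 1.51 against -0.23. From SAG to COR 8 of 14 were called, all higher in SAG and Etv1 and Etv5 among them, where 32.4% of all genes were called, with a median of 2.22 against -0.29. From PF to SAG 6 of 13 were higher in SAG and 1 in PF, where 30.1% of all genes were called, with a median of -1.53 against 0.29. Of the ETS factors that FGF signals induce, Etv4 was too low to test, at 0.6 CPM at most, and Etv5 was not called between PF, COR and GP, at 52.3 (PF), 81.1 (SAG), 32.9 (COR) and 20.02 CPM (GP).

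Dusp1, Egr1 and Fos are also immediate early genes, which rise within minutes of many stimuli and of tissue dissociation. Fos stood at 720 and 896 CPM in the GP plates, 218 and 244 CPM in PF, 115 and 367 CPM in COR and 7064 and 1984 CPM in SAG. Egr1, summed over the plates of a tissue, stood at 212 CPM in GP against 51.8 in PF, 59.96 in COR and 8123 in SAG. The part of this early response in the GP values of Spry1, Spry4 and Dusp6, and that of the tendon genes, which summed to 11919 and 7527 CPM in the GP plates against 1318 to 4621 CPM in the suture plates and were also highest in GP, was not tested.

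Within tissues, Dusp6 was read in a larger share of the cells without Fgfr2 reads than of those with them. It was read in 6 of 60 COR cells with Fgfr2 (10%) against 7 of 14 without (50%), and in 3 of 45 GP cells with Fgfr2 (6.67%) against 13 of 33 without (39.4%). In PF it was 1 of 56 against 5 of 31 cells and in SAG 3 of 61 against 3 of 25. Its CPM was lower in the Fgfr2 cells in 8 of 8 plates, in COR 3.91 against 80.4 and 80.6 against 347, in GP 37.5 against 176 and 1.16 against 256, in PF 0 against 41.6 and 7.25 against 33.1, and in SAG 19.8 against 40.9 and 0 against 5.29. Some of these plates rested on very few cells. The level without Fgfr2 came from 1 of 3 cells in COR plate 1, 1 of 13 in PF plate 1 and 1 of 8 in SAG plate 1. In SAG plate 2 it came from 2 of 17 cells. By the share of cells the direction held in 7 plates, SAG plate 1 being the exception at 13.6% against 12.5%. Of all genes, 0.122% of 10685, or 13, were lower in the cells with Fgfr2 reads in all 8 plates, and this split was chosen after the values had been seen.

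Since cells with Fgfr2 reads were deeper, the split was repeated with the same number of reads drawn from each cell, which does not match the cells on the number of genes read. After thinning, Dusp6 was read in 6 of 56 COR cells with Fgfr2 against 7 of 15 without, in 1 of 40 against 12 of 27 GP cells, in 1 of 49 against 4 of 21 PF cells and in 2 of 57 against 2 of 23 SAG cells, and its CPM was lower in the Fgfr2 cells in 7 of 8 plates. The 13 genes included Egr3, an early response gene (2.77 against 17.3 CPM over all cells), Sat1 (100 against 439 CPM) and Yap1 (21.6 against 53.2 CPM). No such direction was seen for Dusp6 by Fgfr1, with 5 plates higher and 3 lower by either count, or for Spry2 by Fgfr2, with 4 plates higher and 4 lower by all reads and 6 higher and 2 lower after thinning.

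**Figure D5:**
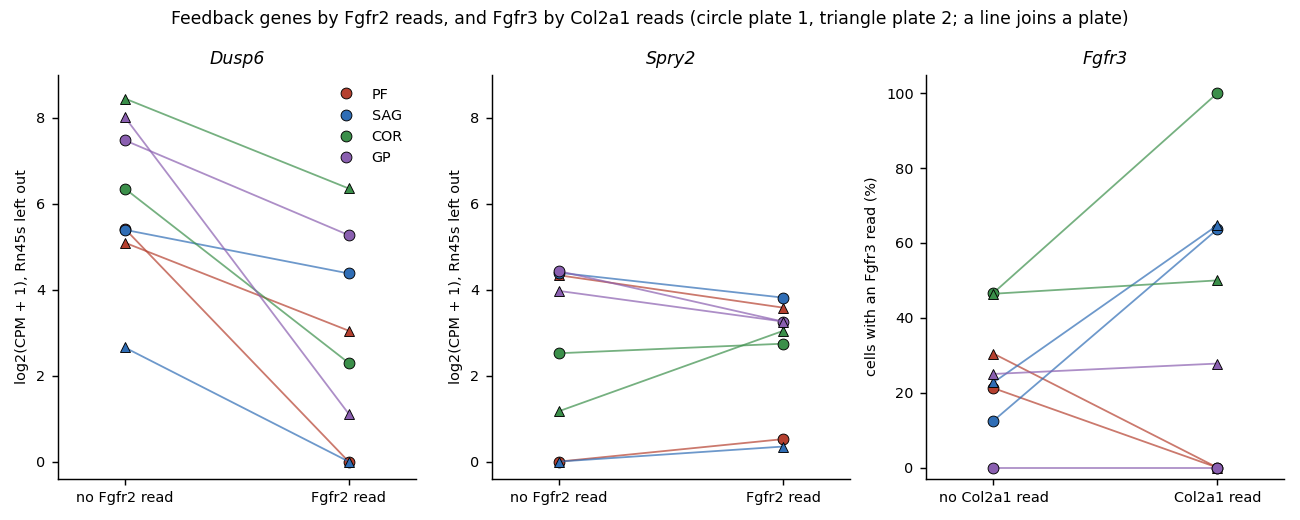
Left and middle, level of Dusp6 and Spry2 as log2(CPM + 1) in the summed cells without and with Fgfr2 reads. Right, share of cells (percent) with an Fgfr3 read among cells without and with Col2a1 reads. Each line joins the 2 values of 1 plate, circles for plate 1 and triangles for plate 2. Dusp6 falls in 8 of 8 plates, Spry2 in 4 of 8, and the 2 SAG lines of Fgfr3 rise.

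For Spry2 the split was by Acta2. Its CPM was lower in cells with reads of Acta2, the smooth muscle actin of pericytes and contractile cells, in 6 of 7 plates that held such cells, with SAG plate 1 as the exception, where 8.72% of 10685 genes were lower in at least 6. It was read in 2 of 30 PF cells with Acta2 against 11 of 57 without, in 5 of 29 against 15 of 45 COR cells and in 5 of 15 against 32 of 63 GP cells. Fgfr2 was higher in the Acta2 cells in 6 of 7 plates, where 4.81% of genes were higher in at least 6. By the share of cells Fgfr2 was higher in 4 and lower in 3 of the 7. After thinning it was higher in 5 of 6 plates by CPM and in 4 of 6 by share. Among the genes with the highest plate-centred rho with Spry2 were Gpn3 (0.31), Cyr61 (0.29), Cdc42se1 (0.29) and Kif2a (0.29). In cycling cells, those with reads of at least 3 of 10 mitotic genes, Fgfr1, Spry2 and Spry4 were lower in 6 of 6 plates that held such cells, as were 7.67% of 10677 genes. After thinning, Fgfr1 was lower in 5 of the 6 and the other two in all 6. The share of cells with an Fgfr1 read was higher among cycling cells in 4 of the 6, before and after thinning. Spry4 was read in only 1 or 2 cells of each of these plates but GP plate 2, where it was in 7. Spry2 was read in 1 cell of PF plate 1. In such plates the direction rests on those cells alone.

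Of the pathway's other parts, the genes that pass the signal on were called near the share of all genes between PF, COR and GP. Of the signal transfer genes tested, 1 of 15 was called from PF to COR (11.8% of all genes), 2 of 16 from COR to GP (13.4% of all genes), Frs2 higher in COR and Gab1 in GP, and 3 of 16 from PF to GP (16.4% of all genes). The last 3 were all higher in GP, among them Gab1 and Mapk3. Among 17 genes of heparan sulphate, the co-receptor that FGFs need, all reached 10 CPM. Sulf2, which trims sulphate from these chains, was lower in GP (255 and 113 CPM in its plates) than in PF (361 and 543 CPM), SAG (459 and 1256 CPM) and COR (265 and 542 CPM). Gpc6 and Hs6st2 were also lower in GP than in PF and COR, and Sdc1, a membrane carrier of heparan sulphate, was higher in GP (324 CPM) than in PF (128 CPM) and COR (140 CPM). Flrt2, which binds FGF receptors, stood at 247 and 905 CPM in SAG against 24.2 to 86.9 CPM in the other plates.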

How the data were processed

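Single sorted cells were sequenced over whole transcripts (SMART-seq2 chemistry, Nextera XT libraries). The authors deposited their results as 8 tables of unnormalised read counts of every gene in each cell, with 1 table per plate, and 0 columns were left without a cell. The submitters' processing notes name STAR 2.5.3a, HTSeq, Seurat 2.3.0, R 3.4.4 and the build mm9, while annotation and strand setting were not given in the sources used here. Groups came from the titles, and 1 cell titled SAG whose description named PF was kept as SAG. The labels and the paper name different ways of preparing the RNA, and the paper's is given above.

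Cells with at least 500 genes and 10000 reads were kept. Counts were summed over the cells of a plate or tissue, divided by the sum without Rn45s and scaled to 1000000 (CPM), with a pseudocount of 1 CPM before log2. Rn45s was left out because it took most reads of 1 plate. RPKM values used the longest coding transcript of a GENCODE annotation on mm9. Genes were compared between tissues where they reached 10 CPM in at least 1 tissue of the pair, and called as described with the results. The plates do not name mice, so a call measures the spread between plates only, and plate and tissue cannot be told apart. Intervals are exact (Poisson for reads, Clopper-Pearson for shares) at 95%. Total reads were equalised by drawing 100000 reads other than Rn45s from each cell, which left 288 cells. The calling step was tested on simulated PF and COR cells, in which only abundant genes were changed. The simulation held no differences between plates, no SAG cells and no changed low genes, so it does not cover calls of those kinds. Splits of cells rest on reads of 1 gene.

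The 10 members and all gene lists were chosen with earlier results of these data known. Named beside the members were pathway genes with at least 100 CPM in a tissue or called between tissues, ligands and receptors with at least 10 CPM, and the 5 genes of highest plate-centred rho. Python 3.11.15, pandas 2.3.3, scipy 1.17.1, R 4.3.3 and, for TMM factors alone, edgeR 4.0.16 were used. Alternatives changed the totals, the weight of cells, the filters, the pseudocount, the read threshold and the plates used. Protein sequences and the promoters of Fgfr1 and Spry4 were not analysed here. A few genes that met the naming rule are not reported here.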

Additional observations from a re-analysis of the deposited data

Results flagged for a closer look

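In 3 cases every plate of a tissue moved one way and every plate of another tissue the opposite way between cells with and without reads of a marker gene, and the difference itself was not tested. The share of cells with an Fgfr3 read was -54.5 percentage points in cells with Ibsp reads less those without in SAG, and 14.3 points in COR. The share with a Spry2 read was -13.0 points by Ibsp in SAG and 13.2 points in COR. The share with a Spry4 read was -5.26 points by Acta2 in PF and 10.5 points in GP. In SAG 9 cells had Ibsp reads, and in GP 15 cells had Acta2 reads.

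The cells left out for low depth were not without signal. Among 35 such cells, 99 reads of the 10 genes were found, all in 3 SAG cells.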

How the results depend on the processing

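No paired analysis was possible because no animal is named and plate numbers do not link tissues. Each tissue is 1 sample, so no statement here reaches beyond these plates, and depth limits the genes read in few cells. Called ratios of members kept their sign in 318 of 322 alternatives and uncalled ones in 440 of 518. Leaving out a plate or changing the pseudocount could not reverse a called ratio, because its 4 plate ratios had to share a sign. The count of kept signs is therefore no measure of stability for those alternatives. Called ratios of Fgfr1, Fgfr2, Fgf18, Fgf9 and Spry4 fell below the size called in some alternatives. The 4 reversals came with Rn45s counted in the totals: Fgfr1 at 0.69 for PF over SAG, -0.28 for SAG over COR and -0.069 for SAG over GP, and Fgfr2 at -0.081 for SAG over COR. With these totals the members called were 1 for PF to SAG (4 as reported), 0 for PF to COR (1), 1 for SAG to COR (3), 4 for SAG to GP (7) and 2 for COR to GP (4).

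The members called for PF to SAG were 1 under the stricter filter and 1 without SAG plate 2. For PF to COR they were 2 by the mean CPM of cells, 2 with no filter on genes and 3 with no minimum fold, and for COR to GP 8 with no minimum fold. With no minimum fold the genes called were 3081 for PF to COR, 3514 for PF to GP and 3488 for COR to GP, against 1122, 1572 and 1266 as reported. Leaving out 1 plate at a time gave 3195 to 7389 genes for PF to SAG (2970 as reported), 1763 to 2965 for PF to COR, 2239 to 3382 for PF to GP, 3038 to 7477 for SAG to COR (3174), 3239 to 7494 for SAG to GP (3111) and 1881 to 3198 for COR to GP, since fewer plate ratios then had to share a sign. The members called were then 1 to 6, 1 to 3, 4 to 6, 2 to 6, 6 to 8 and 4 to 5 in the same order.

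The share of PF cells with any of the 3 receptors was 92.8% under the stricter filter and 72.3% with no filter on cells, and that of COR ran from 93.1% to 100% with 1 plate left out. Fgfr3 by Col2a1 in SAG was 51.1 points without SAG plate 2. Fgfr3 by Col2a1 in COR was -47.9 points with Col2a1 cells taken from 10 CPM up. With 5 reads asked for, Spry1 and Spry4 by Col2a1 in SAG were 0.238 points each, Fgfr3 by Ibsp in COR -2.97 points and Spry2 by Ibsp in COR -0.574 points. After thinning, Spry2 by Ibsp in COR was -2.72 points and Spry4 by Acta2 in GP -5.27 points. For these reversals the cause was not tested.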
